A study of Mus musculus with 6 samples.

Results

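Of the 10 genes described here as markers of pituitary stem and progenitor cells, the water channel gene Aqp3 showed the largest genotype difference. After 3 days of diphtheria toxin its signal was at least 21.2-fold higher in sorted cells of GHCre mice than in those of control mice, in which it was not well above background. After 10 days it was not well above background in either genotype. Krt8 was 3.1-fold higher after 3 days on 1 of its 2 probes. The Sox2 probe was not well above background on any array. None of these differences passed the threshold when p-values were adjusted over all genes.

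The members are Sox2, Sox9, Gfra2, Cdh26, Cxadr, Nes, Krt8, Krt18, Aqp3 and Ly6a, taken as every probe whose gene name in the array files equals one of these symbols. This gave 12 probes of 39429, for 10 of 30119 genes or unnamed transcripts. RNA came from anterior pituitaries of female mice, from cells that pump out Hoechst dye (the side population), without those of high surface Sca1, as sorted by flow cytometry. The 6 arrays form 4 groups: GHCre/iDTR after 3 days of toxin (2 arrays), -/iDTR controls after 3 days (2 arrays), GHCre/iDTR after 10 days (1 array) and -/iDTR controls after 10 days (1 array). All mice carried the inducible toxin receptor iDTR and all received diphtheria toxin, dosed 2 times daily at 4 ng per g of body weight. The groups differ in the GHCre driver, in which Cre is expressed under growth hormone control, so that the receptor is directed to growth hormone cells. The labels do not say whether a replicate is 1 mouse or a pool, so p-values measure only the spread between these samples. Where a sample's description and its title named different groups, the title was followed, since genotype and treatment labels bear it out.

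The adult pituitary keeps a pool of Sox2-positive, Sox9-positive epithelial cells in the marginal zone and scattered in the gland, which can give rise to hormone cells. Sox2 and Sox9 are transcription factors of progenitor cells. GFRa2 is a receptor of the GDNF family reported on pituitary progenitors. Cadherin 26 and the coxsackie and adenovirus receptor, encoded by Cxadr, are adhesion proteins. Nestin, keratin 8 and keratin 18 are intermediate filament proteins, and keratins 8 and 18 assemble with each other in simple epithelia. Aquaporin 3 passes water and glycerol through the membrane. Ly6a encodes Sca1, the surface antigen used in the sort, which endothelial cells also carry and which interferon induces.

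Probe sequences are shown for the genes whose probes decide what can be said: the 1 Aqp3 probe, both probes of Krt8 and of Cxadr, which behaved differently, and the Sox2 probe. They are written 5′ to 3′ as 30-base stretches of the 60-base probes from the array files. Capitals mark the letters AATAAA, the core of the usual polyadenylation signal.
Aqp3: gtgtaatatgtttctgttataagatagaca
Krt8, downstream probe: tgtattttctaaAATAAAgcctcagctggc
Krt8, upstream probe: gcctgcaggcggagattgaagccctcaaag
Cxadr, upstream probe: tgtgtacttttgaAATAAAatgaagaaagc
Cxadr, downstream probe: tacttcttcctttataactctagtaaagac
Sox2: gagaatttgccaatatttttcgaggaaagg
In the mm9 coordinates of the files the Aqp3 probe lies at chr4:41039962-41040021 on the minus strand, and the Sox2 probe at chr3:34550773-34550832 on the plus strand. The downstream Krt8 probe is at chr15:101827138-101827197 and the upstream one at chr15:101828827-101828886, both on the minus strand, 1689 bases apart. The Cxadr probes, both on the plus strand at chr16:78340937-78340996 and chr16:78359501-78359560, lie 18564 bases apart and were designed to different RefSeq transcripts. The upstream Krt8 probe was designed to a RefSeq transcript and the downstream one to a sequence record outside RefSeq. Exon and UTR annotation of this build was not used here. AATAAA was found in 5 of the 12 member probes and in 12.6% of all 39429 probes, and its complement TTTATT in 0 of the 12 and in 4.03% of all. The genes of the keratin pair are neighbours, with the Krt18 probe at chr15:101862341-101862400, 33514 bases from the nearer Krt8 probe.

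All levels below are log2 of the array signal relative to the 75th percentile of the same array, and differences are GHCre minus control on the log2 scale with the standard error of the limma fit. The 75th percentile of signal lay between 186.1 and 298.5 on the 6 arrays, with 53.8% to 65.7% of probes well above background. Gh, the transcript of the ablated cells, had levels of 5.46 and 2.20 on the GHCre arrays of 3 days, against 5.69 and 3.65 on the controls, and 2.21 on the GHCre array of 10 days, against 7.86 on the control. The 3 day groups overlapped for Gh, so it does not check their labels. The lower 10 day value was not particular to Gh. Of 11 hormone cell markers tested after 10 days, 7 were lower in the GHCre array and 4 higher. Cga differed by -7.23, Gh by -5.65 and Pomc by -3.86, and the cause was not tested. The 3 day arrays form 2 pairs of both genotypes, on slides 1 and 3. The GHCre array of 10 days is also on slide 3 and the 10 day control is alone on slide 2, so genotype and slide after 10 days cannot be told apart.

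Transcripts of 8 of the 10 genes were well above background on all 6 arrays on their brighter or only probe, a state found for 46.6% of all probes on the arrays. Aqp3 was well above background on both GHCre arrays of 3 days and on no other array, a pattern found for 0.317% of all probes. The share for any given pair of arrays is small, since 5.01% of all probes passed on exactly 2 arrays of whichever groups. Sox2 and the downstream Cxadr probe were not well above background on any array, as were 22.8% of all probes. With a less strict flag, signal that is positive and significant against background, the Aqp3 probe was detected on all 6 arrays and the Sox2 probe on 2.

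**Figure D1:**
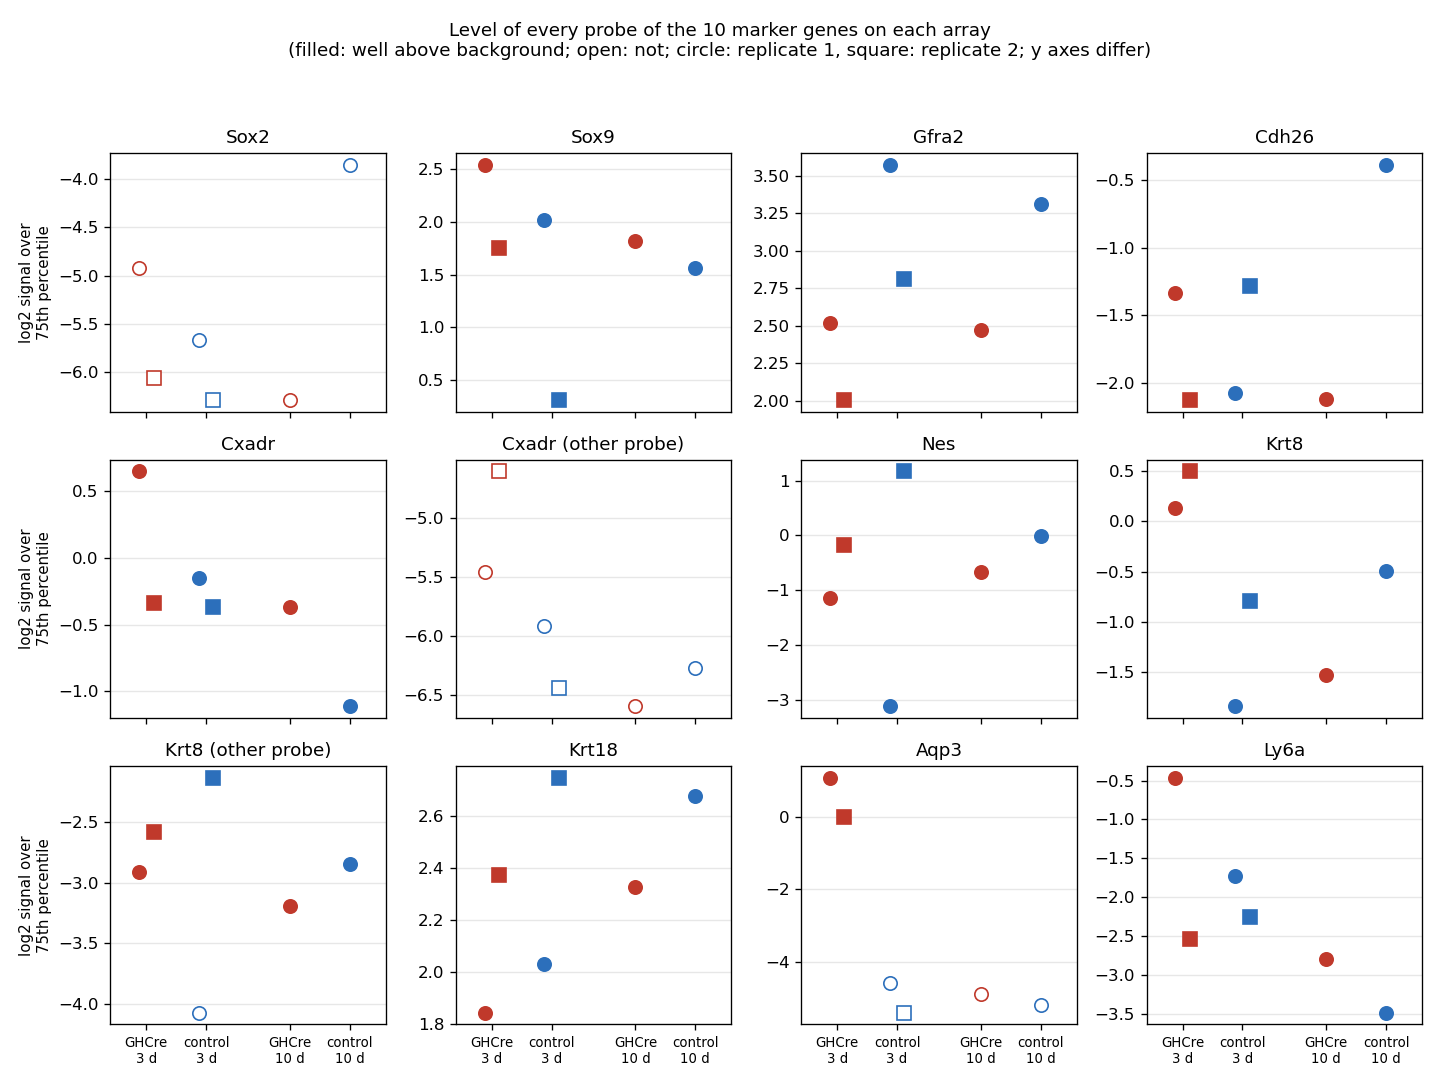
Level of each of the 12 probes of the 10 marker genes on the 6 arrays, as log2 signal over the array's 75th percentile, with GHCre in red and control in blue and filled points well above background. The 2 GHCre arrays of 3 days stand at 1.06 and -0.005 for Aqp3, against -4.58 and -5.40 on the controls, and no Sox2 point is filled.

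Sox2, the factor most used to define these stem cells, had array signals of 9.85 and 4.44 on the GHCre arrays of 3 days, against 3.66 and 3.20 on the controls. After 10 days the signals were 3.50 on the GHCre array and 17.7 on the control. The brightest of these, on the 10 day control, corresponds to a level of -3.85, and it was still not flagged as well above background. The lowest flagged level on that array was -3.94, so the flag is not a cut on level alone. With no array flagged, the Sox2 probe was not tested, and no fold is given. Hesx1 and Pax6, transcription factors of the developing gland, as well as Prrx2 and Lgr5, were also well above background on 0 of 6 arrays.

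Sox9 was measured by 10 spots of 1 probe on each array, which shows the technical spread. Levels were 2.54 and 1.75 on the GHCre arrays of 3 days, against 2.02 and 0.32 on the controls, and 1.82 on the GHCre array of 10 days, against 1.56 on the control. The standard deviation over the 10 spots was between 0.0452 and 0.0696 on the 6 arrays, far below the gap of 1.70 between the 2 controls of 3 days. The lowest array was replicate 2 of the controls, the other 5 arrays lay between 1.56 and 2.54, and the groups overlapped. GHCre exceeded control by 0.98 ± 0.77 after 3 days (limma, adjusted p = 0.869, 95% interval -1.15 to 3.11). Leaving out control replicate 2 gave 0.13, and leaving out control replicate 1 gave 1.83. After 10 days it was 0.26 ± 1.09.

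Gfra2, the receptor gene, was the 1 member tested for which all GHCre arrays lay below all control arrays, as did 7.94% of all genes tested. Its levels were 2.52 and 2.01 on the GHCre arrays of 3 days, against 3.57 and 2.81 on the controls. After 10 days they were 2.47 on the GHCre array and 3.31 on the control. The highest GHCre array was thus below the lowest control array. The 3 day difference was -0.93 ± 0.51 (limma, adjusted p = 0.854, 95% interval -2.34 to 0.49), with -1.05 within slide 1 and -0.80 within slide 3, and -0.84 ± 0.72 after 10 days. Leaving out control replicate 1 gave -0.55 after 3 days. Neither passed the threshold of an adjusted p of 0.05, and the difference between these effects was 0.08 ± 0.88.

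The adhesion genes gave no 3 day difference beyond the spread of the replicates. Cdh26 stood at -1.33 and -2.12 on the GHCre arrays, against -2.07 and -1.28 on the controls, so the groups overlapped almost wholly. After 10 days it was at -2.11 on the GHCre array and -0.39 on the control, the highest of the 6 arrays, a difference of -1.72 ± 0.79 (adjusted p = 1 with limma) that has no replicate check and was -1.06 with normexp background correction. Cxadr on its brighter, upstream probe stood at 0.64 and -0.34 on the GHCre arrays of 3 days, against -0.15 and -0.37 on the controls. After 10 days it was at -0.37 on the GHCre array and -1.11 on the control. Replicate 1 of the 3 day GHCre group was the highest array, and the difference was 0.41 ± 0.53 after 3 days and 0.74 ± 0.75 after 10 days. On the mean of both Cxadr probes these were 0.78 and 0.21. The downstream Cxadr probe, not well above background anywhere, was positive and significant on the 2 GHCre arrays of 3 days alone, with signals of 6.80 and 12.2 against 3.09 and 2.89 on the controls.

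Nes, which encodes nestin, an intermediate filament of neural and other progenitors and of endothelial cells, varied more between the control replicates than between genotypes. Its levels were -1.14 and -0.18 on the GHCre arrays of 3 days, against -3.11 and 1.17 on the controls, and -0.66 on the GHCre array of 10 days, against -0.007 on the control. Both the lowest and the highest of the 6 values are controls of 3 days. Their gap of 4.28 was reached or passed by 2.58% of the 20920 genes tested, among which the median gap between these controls was 0.73. The 3 day difference of 0.31 ± 1.59 had a 95% interval from -4.11 to 4.73, with 1.97 within slide 1 and -1.35 within slide 3. A genotype effect of several fold in either direction is thus not detectable for this gene with these arrays.

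Krt8, which encodes a keratin of simple epithelia, was higher in GHCre mice after 3 days on its downstream probe. The levels there were 0.14 and 0.50 on the GHCre arrays, against -1.84 and -0.80 on the controls, and the groups did not overlap. After 10 days the order was the opposite, with -1.53 on the GHCre array and -0.49 on the control. This 3 day difference was 1.63 ± 0.55 (limma, unadjusted p = 0.0415, adjusted p = 0.755, 95% interval 0.10 to 3.17), with 1.98 within slide 1 and 1.29 within slide 3. After 10 days it was -1.04 ± 0.78 (-0.69 with normexp), and the difference between these effects was -2.67 ± 0.96 (unadjusted p = 0.0489, adjusted p = 1 with limma).

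The upstream Krt8 probe, shown above, gave another order. Its levels were -2.91 and -2.58 on the GHCre arrays of 3 days, against -4.07 and -2.13 on the controls, of which the first was not well above background. The groups overlapped, and the difference was 0.36 ± 0.81 when every probe was fitted (adjusted p = 0.952 with limma), with 1.16 within slide 1 and -0.45 within slide 3. On the mean of both probes Krt8 differed by 1.00 after 3 days and by -0.69 after 10 days, and the effects by -1.69. Krt18, whose product is the partner of keratin 8, stood at 1.84 and 2.37 on the GHCre arrays, against 2.03 and 2.75 on the controls. After 10 days it was at 2.33 on the GHCre array and 2.68 on the control. Its differences were -0.28 ± 0.50 after 3 days (95% interval -1.67 to 1.11) and -0.35 ± 0.71 after 10 days, and all 6 arrays lay within 0.90 of each other, the narrowest range of the 12 probes.

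Aqp3, which encodes the water and glycerol channel, had array signals of 623.1 and 297.0 on the GHCre arrays of 3 days, against 7.77 and 5.95 on the controls. After 10 days the signals were 9.24 on the GHCre array and 7.06 on the control. In levels these are 1.06 and -0.005 on the GHCre arrays, against -4.58 and -5.40 on the controls of 3 days, and -4.89 on the GHCre array against -5.18 on the control of 10 days. The 2 GHCre arrays of 3 days stood apart from the other 4, which spanned 0.81.

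Since neither control of 3 days was well above background, the Aqp3 fold is a bound. With dim control signals raised to the lowest one that passed the flag on that array, it was at least 21.2-fold higher in GHCre mice (adjusted p = 0.653 with limma). The measured means behind it were 0.53 in GHCre mice and -4.99 in controls. The flag is not a cut on level alone, as Sox2 on the 10 day control shows, so the bound rests on the floor chosen. Aqp3 passed the filter on dim probes only through the GHCre arrays of 3 days, so a difference was built into its place in the fit, and its p-values are not read further. The measured difference was 5.64 within slide 1 and 5.39 within slide 3, and between 4.98 and 6.05 when each 3 day array was left out in turn. It was 2.43 with normexp background correction, which adds an offset to every spot and so compresses dim ones. In GHCre mice the level after 10 days was at least 27.8-fold below that after 3 days (adjusted p = 1 with limma), with a measured difference of -4.88 within slide 3, which holds an array of each time. After 10 days no fold between the genotypes can be given. In RNA of a sorted fraction, more cells with a transcript and more transcript per cell cannot be told apart.

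**Figure D2:**
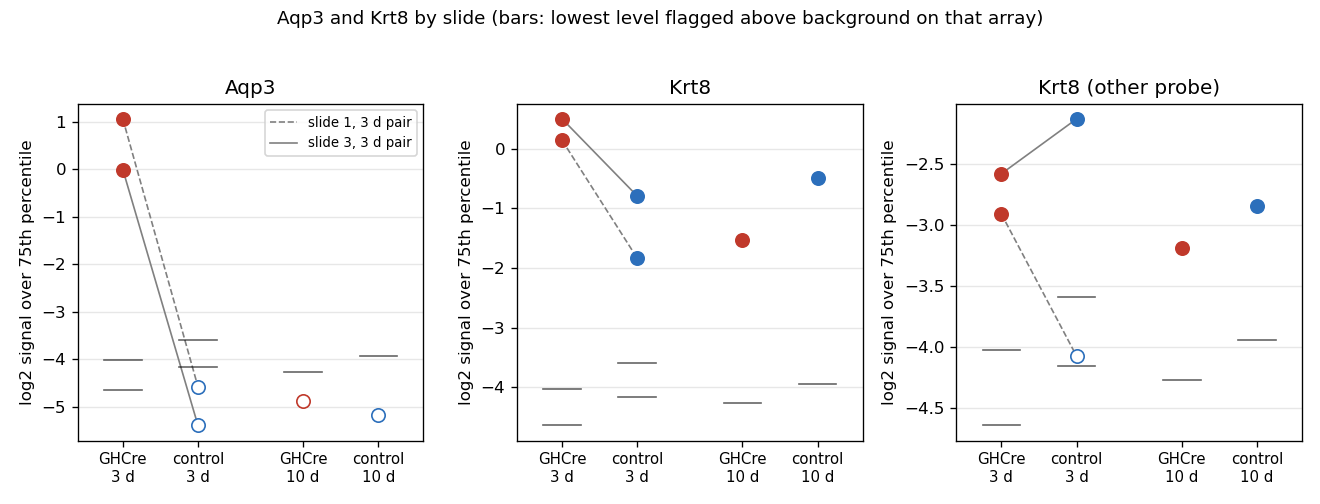
Levels of Aqp3 and of both Krt8 probes on the 6 arrays, with lines joining the GHCre and control arrays of 3 days on the same slide and black bars at the lowest level flagged above background on each array. For Aqp3 and the downstream Krt8 probe both lines run the same way, which groups that do not overlap fix in advance. GHCre minus control was 5.64 and 5.39 for Aqp3 and 1.98 and 1.29 for that Krt8 probe. For the upstream Krt8 probe the lines run in opposite directions, with 1.16 and -0.45.

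Ly6a, the gene of the sorting antigen Sca1, was well above background on all 6 arrays although the cells of highest surface Sca1 had been removed, a gate that also limits what its level can show. It stood at -0.47 and -2.53 on the GHCre arrays of 3 days, against -1.72 and -2.25 on the controls, and at -2.78 on the GHCre array of 10 days, against -3.48 on the control. Replicate 1 of the 3 day GHCre group was the highest array, and the other GHCre array of that time lay below both controls. The difference was 0.49 ± 0.85 after 3 days (95% interval -1.86 to 2.84), with 1.25 within slide 1 and -0.28 within slide 3, and it was -0.55 without replicate 1 of the GHCre group. The gap of 2.07 between the GHCre replicates was reached or passed by 10.2% of genes. Both 10 day arrays were below all 3 day arrays of their genotype, as for 7.57% of all genes, by -1.28 ± 1.04 in GHCre mice and -1.49 ± 1.04 in controls, and neither passed the threshold. Of the marker lists tracked beside it, 16 interferon response genes had a summed signal of 71.8 and 37.8 times the 75th percentile on the GHCre arrays of 3 days, against 21.5 and 13.6 on the controls, and 25.5 on the GHCre array against 26.1 on the control of 10 days.

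Of the marker genes, 9 of 10 entered the fit across 20920 genes, and 0 passed an adjusted p of 0.05 in any of the 5 comparisons, as did 0% of all genes. The counts that follow leave out Aqp3 and cover the 8 members that were well above background on every array. The shares set beside them are over all 20920 genes tested, a wider set that needed only 2 arrays above background. After 3 days 1 of the 8, Krt8, had an unadjusted p under 0.05, against 6.58% of all genes. After 10 days 0 of 8 did, against 3.02%. For the difference between the effects it was again Krt8, against 3.94%. For 10 against 3 days it was 0 of 8 in GHCre mice, against 4.02%, and 0 of 8 in controls, against 4.04%. The GHCre and control arrays of 3 days did not overlap for 2 of 8 members, or 25%, against 37.9% of all genes. GHCre was higher for Krt8, a direction seen in 16.7% of all genes, and lower for Gfra2, seen in 21.3%.

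The median difference of the 8 members was 0.36 after 3 days and -0.50 after 10 days, against -0.04 and -0.0013 over all genes tested. After 3 days Krt8 alone of the 8 was at least 2-fold higher in GHCre mice, against 14.5% of all genes, and 0 were that much lower, against 11.6%. With 1 array a group after 10 days, 0 of 8 were at least 2-fold higher in the GHCre array, against 12.7%, and Cdh26 and Krt8 were that much lower, against 14%. In GHCre mice Krt8 and Ly6a were at least 2-fold lower after 10 than after 3 days, against 11.2% of all genes, and 0 were that much higher, against 14%. Krt8 was the 1 member whose 3 day groups did not overlap and whose 10 day difference had the opposite sign, a pattern of 17.7% of all genes. Comparisons of genotype and of time share arrays, so these counts are not independent of each other.

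**Figure D3:**
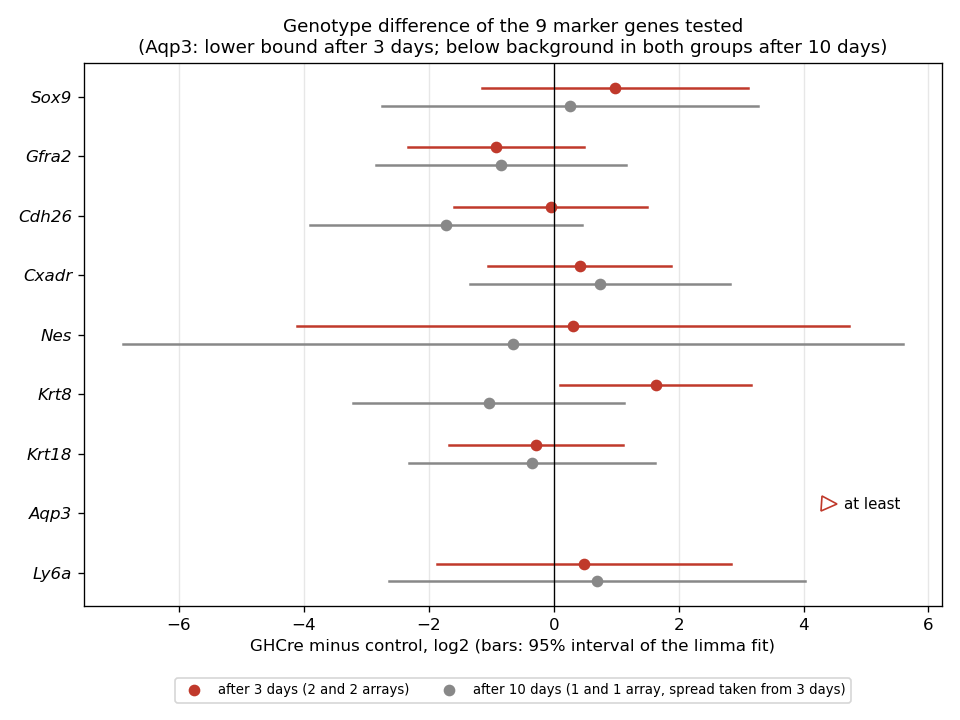
GHCre minus control, on the log2 scale, for the 9 marker genes tested, after 3 days in red and after 10 days in grey, with 95% intervals of the limma fit that are not adjusted for the number of genes. Aqp3 is drawn as its lower bound of 21.2-fold after 3 days, with no interval. Of the other 8 genes the 3 day interval of Krt8 (0.10 to 3.17) excludes 0, and the intervals of 10 days take their spread from the 3 day arrays.

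Genes related to the members were set beside them in 9 lists, and 0 genes of any list passed the threshold of the limma fit in either genotype comparison. After 3 days 7 of the 81 tested, or 8.64%, had an unadjusted p under 0.05, against 6.58% of all genes. This count includes Ly6k, Esam and Vsig1. They would not have passed the filter without the 3 day arrays of the genotype in which they were higher. For these genes a difference was thus partly built in. Of 22 other pituitary stem cell markers 17 were tested after 3 days, with 10 higher, 7 lower and a median of 0.29. Hes1, a Notch target that keeps progenitors undifferentiated, stood at 2.26 and 1.95 on the GHCre arrays, against 1.65 and 1.20 on the controls (0.68 ± 0.44). Klf4, a pluripotency factor, was at 4.97 and 4.58 against 4.21 and 4.23 on the controls (0.56 ± 0.42). For both the groups did not overlap, with GHCre higher, as for 3 of the 17 and for 16.7% of all genes. Cyp2f2, a cytochrome gene found in pituitary progenitors, overlapped at 2.39 and 0.46 on the GHCre arrays and -1.02 and 1.29 on the controls. The 4 relatives of Sox2 and Sox9, namely Sox1, Sox3, Sox8 and Sox10, had a median of 0.03, and Sox3, another factor of the Sox2 subgroup, was at -3.77 and -4.41 on the GHCre arrays, against -3.48 and -3.37 on the controls.

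Among the genes of the GDNF system, 6 of 9 were tested, with 1 higher and 5 lower after 3 days and a median of -0.75. Gfra4, the receptor of persephin, was at 1.99 and 2.67 on the GHCre arrays, against 2.86 and 3.19 on the controls (-0.70 ± 0.47), and Ncam1, an alternative GDNF receptor, at 0.93 and 0.43, against 1.61 and 1.39 on the controls (-0.81 ± 0.44). Ret, the signalling receptor that GFRa proteins need, was well above background on 1 of 6 arrays, as was Gfra3, and Gdnf on 0. After 10 days 4 of the 6 genes were lower in the GHCre array, with a median of -0.39, while Gfra4 stood at 2.88 on the GHCre array and 2.28 on the control.

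Epithelial genes related to Cxadr and the keratins lay on both sides of 0. Of 23 adhesion and junction genes 19 were tested, with 11 higher, 8 lower and a median of 0.12, and 6 were at least 2-fold lower, against 11.6% of all genes, while 2 were at least 2-fold higher, against 14.5%. The 3 day groups did not overlap for 7 of the 19, against 37.9% of all genes. GHCre was higher for 4, against 16.7%, and lower for 3, against 21.3%. Ocln, the tight junction gene of occludin, was at -3.70 and -6.10 on the GHCre arrays of 3 days, of which the first alone was well above background, against -2.04 and -1.75 on the controls (-3.01 ± 0.94, adjusted p = 0.739 with limma). Grhl2, an epithelial transcription factor, stood at -3.90 and -3.77 on the GHCre arrays, against -5.06 and -4.77 on the controls, which were not well above background, at least 1.03-fold higher. Dsg2, a desmosomal cadherin, stood at -3.54 and -3.08 against -2.23 and -0.61 on the controls, and Esrp1, an epithelial splicing factor, at -1.41 and 0.69 against 1.35 and 1.73 on the controls. After 10 days Ocln, Dsg2 and Esrp1 differed by 0.13, 0.61 and 0.52. Cdh1, which encodes E-cadherin, was well above background on 1 array. Among 8 other keratins 4 were tested, none with separated groups after 3 days, and Krt19 was well above background on 0 arrays.

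Cxadr belongs to a family of junctional immunoglobulin proteins, of which 6 of 7 others were tested, with 2 higher and 4 lower after 3 days. Esam, carried by endothelial cells, was at -2.57 and -3.17 on the GHCre arrays, against -5.17 and -6.28 on the controls, which were not well above background, at least 2.01-fold higher. Vsig1 was at -4.95 and -6.21 on the GHCre arrays, not well above background, against -1.79 and -3.47 on the controls, at least 3.26-fold lower. Clmp stood at 1.24 and 1.15, against 0.43 and 0.72 on the controls.

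Beside Aqp3, 8 of 10 other aquaporins were tested, with 3 higher, 5 lower and a median of -0.28 after 3 days. None was 2-fold higher. Aqp1, the most widely expressed water channel, was at 3.76 and 3.30 on the GHCre arrays, against 2.74 and 2.99 on the controls (0.67 ± 0.43). Aqp7, which passes glycerol as Aqp3 does, was at -2.25 and -2.40, against -3.19 and -2.62 on the controls (0.58 ± 0.44). Aqp11 was at -2.29 and -2.87, against -1.30 and -1.19 on the controls (-1.34 ± 0.45, adjusted p = 0.755 with limma). After 10 days 6 of the 8 were lower in the GHCre array, with Aqp1 at 3.00 on the GHCre array and 3.94 on the control.

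Of the Ly6 family around Ly6a, 10 of 15 genes were tested, with 5 higher and 5 lower. Ly6k was at -5.71 and -6.32 on the GHCre arrays of 3 days, against -0.19 and 0.03 on the controls, at least 19.1-fold lower, and was well above background on neither 10 day array. Ly6e, an interferon-induced member, was at 5.89 and 5.50 on the GHCre arrays, against 4.43 and 4.35 on the controls (1.30 ± 0.42, adjusted p = 0.744 with limma), and at 3.94 on the GHCre array of 10 days, against 4.68 on the control. Among 8 intermediate filament genes that pair with or resemble nestin, 7 were tested, with 3 higher and 4 lower. Des, the muscle filament gene also made by pericytes, was at 0.09 and 0.44, against -2.16 and -1.40 on the controls (2.05 ± 0.49, adjusted p = 0.692 with limma), and Vim, the vimentin gene, at 3.08 and 3.02, against 2.48 and 2.16 (0.73 ± 0.41).

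**Figure D4:**
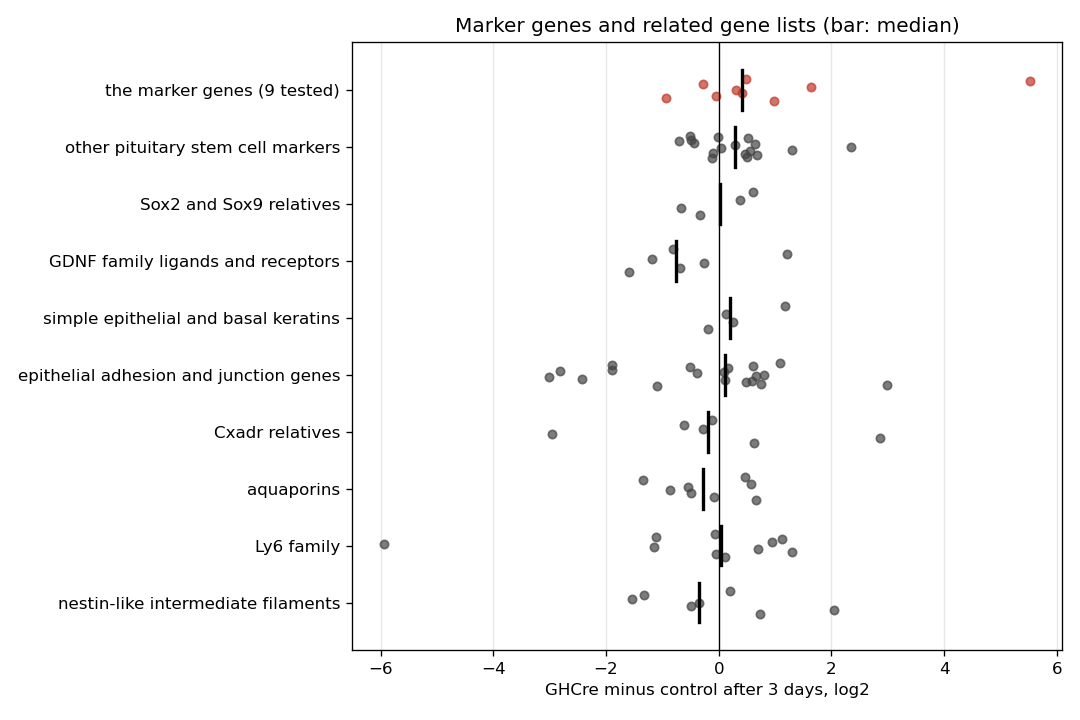
GHCre minus control after 3 days, on the log2 scale, for each tested gene of the 9 related lists and for the 9 tested marker genes in red, with a black bar at each median. List medians lie between -0.75 and 0.29. The median drawn for the 9 marker genes is 0.41, and that of the 8 without Aqp3 is 0.36. Aqp3, measured at 5.52 against controls below background, is the farthest point to the right. It passed the filter only through the GHCre arrays of 3 days.

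The summed signals of other cell types' markers also did not overlap between the 3 day groups, as for Aqp3, Krt8 and Gfra2. Of all single genes tested 37.9% did not overlap either. The part of other cell types in these results was not tested. The summed signal of 12 fibroblast and mural markers, relative to the 75th percentile, was 274.5 and 228.2 on the GHCre arrays of 3 days, against 208.2 and 141.4 on the controls, and of 12 endothelial markers 10.8 and 8.55 against 7.53 and 7.36 on the controls. Of the 12 fibroblast and mural genes tested 11 were higher and 1 lower. Of the 8 endothelial genes tested 7 were higher and 1 lower. For 12 macrophage and myeloid markers the summed signal was 162.6 and 165.6, against 233.5 and 195.9 on the controls. Itgam made up 78.7% to 82.9% of that sum on each array, and of the 11 genes tested 6 were higher and 5 lower, with a median difference of 0.20. For 11 lymphocyte markers the summed signal was 19.6 and 17.5, against 12.3 and 9.25, with Cd3e 40.6% to 59.4% of it. Of the 8 lymphocyte genes tested 6 were higher and 2 lower. For 8 folliculostellate markers the summed signal was 21.6 and 17.2, against 16.5 and 10.9, with Vim 33.8% to 48.4% of it. Without Vim the folliculostellate sum was 13.1 and 9.12, against 10.9 and 6.39 on the controls, so the groups overlapped. Of these 8 genes 4 were higher and 4 lower, with a median difference of -0.12. For 12 hormone cell markers the summed signal was 1743 and 1520, against 2501 and 2416 on the controls, with Prl alone 73.1% to 88.6% of it. Without Prl it was 198.0 and 218.2, against 334.8 and 287.5 on the controls, and of the 11 genes tested 3 were higher and 8 lower. Of these markers Tie1, C1qa, Cd79b, Ms4a1 and Fshb were well above background on 0 arrays. The 10 members themselves summed to 21.5 and 17.1 on the GHCre arrays of 3 days, against 21.9 and 19.2 on the controls, and to 16.3 on the GHCre array of 10 days, against 22.4 on the control.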

How the data were processed

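Per the file headers, the 6 arrays are 1-colour Agilent scans quantified with Feature Extraction 10.7.3.1 on mm9 annotation, and the authors deposited intensity values that this software had corrected for background and detrended within each array. The flags for signal above background are those of the same software. Per the labels, RNA typically came from 25000 to 50000 sorted cells, and 1 ng of it was amplified. An alternative input was the log2 table deposited for the series, whose values matched quantile normalized signal at a correlation of at least 0.9999 on each array.

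Spots of a probe were averaged as log2 with flagged spots left out, and the log2 of the array's 75th percentile was subtracted. A probe counted as well above background where most of its spots had the flag. Probes were named through accession (27234) or symbol (4141). The brightest probe stood for a gene. The 20920 genes above background on at least 2 arrays were fitted with limma 3.58.1 in R 4.3.3 (a mean for each of 4 groups, all 6 arrays, Benjamini-Hochberg over all genes, threshold 0.05). The fit has 2 residual and 2.03 prior degrees of freedom, so comparisons with 10 day arrays assume that lone arrays vary like those of 3 days. The fit was tested on simulated data. For bounds, a dim group's signals were raised to the lowest one that passed the flag on the same array.

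Members and lists were chosen with earlier results of these data known. All members are named, and of each related list up to 4 genes of lowest unadjusted p after 3 days are eligible. The number of arrays limits the precision. Alternatives were 16: 4 other scalings or inputs, 3 filters, 2 treatments of probes, a variance trend, the replicate number or slide as a block, and each 3 day array left out.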

Additional observations from a re-analysis of the deposited data

Results flagged for a closer look

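Krt8 was flagged for a genotype difference that ran in opposite directions at the 2 times. Of all genes, 17.7% had 3 day groups that did not overlap and a 10 day difference of the opposite sign. For Krt8 both GHCre arrays of 3 days were above both controls and the GHCre array of 10 days was below its control. The effect of 10 days minus that of 3 days was -2.67. The test of this difference gave an unadjusted p = 0.0489 and an adjusted p = 1 with limma, and all of its spread comes from the 3 day arrays. The upstream Krt8 probe gave -0.70 for the same difference. No group had enough arrays to look for a single outlying array.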

How the results depend on the processing

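The count of genes past the threshold was 0 in all 5 comparisons under all 16 alternatives that could be fitted, and no member passed under any of them (lowest adjusted p 0.384). The slide could not be fitted as a block where the 10 day control enters. Same-numbered 3 day arrays share a slide, but their deviations correlated at only 0.087 over genes, so the numbers were not taken as pairs. The replicate or slide block cannot change the 3 day differences (Aqp3 5.52, Krt8 1.63), since each block holds a 3 day array of each genotype. Their unchanged values are thus no check. Of 45 differences, 9 members in 5 comparisons, 23 kept their sign throughout and 22 did not, all of them uncalled. Not every setting could turn a sign. The filters and the variance trend leave the differences themselves unchanged. Leaving out a 3 day array cannot alter the 10 day genotype differences, so their kept signs rest on fewer settings. Aqp3 lacks a value where signal on all 6 arrays was required.

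Signs that turned under other settings are as follows, and the cause was not tested. With normexp and the 75th percentile, Nes after 3 days was -0.23, Aqp3 after 10 days -0.07 and the Ly6a difference between the effects -0.10. With normexp and quantile normalization these were -0.13, -0.04 and -0.09, Nes within GHCre was -0.02 and Aqp3 within control 0.02. Quantile normalization gave -0.04 and the series table -0.02 for Nes within GHCre. The mean of all probes gave -0.57 for the Cxadr difference between the effects. The slide as a block gave, for 10 against 3 days within GHCre, 0.30 for Sox9, -1.31 for Nes and -0.09 for Krt18. The replicate block gave -0.11 for Gfra2 within GHCre, and -0.23 for Sox9 and -0.20 for Gfra2 within control.

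With each 3 day array left out in turn, the 3 day difference ranged from -0.45 to 0.35 for Cdh26, -0.08 to 0.91 for Cxadr, -1.83 to 2.45 for Nes, -0.64 to 0.08 for Krt18 and -0.55 to 1.52 for Ly6a. The difference between the effects ranged from -1.57 to 0.14 for Sox9, -0.30 to 0.47 for Gfra2, -0.16 to 0.82 for Cxadr, -3.1 to 1.17 for Nes, -0.43 to 0.28 for Krt18 and -0.83 to 1.24 for Ly6a. For 10 against 3 days within GHCre it was -0.72 to 0.07 for Sox9, -0.05 to 0.46 for Gfra2, -0.78 to 0.01 for Cdh26, -0.48 to 0.48 for Nes and -0.05 to 0.48 for Krt18. Within control it was -0.46 to 1.24 for Sox9, -0.26 to 0.50 for Gfra2, -1.17 to 3.1 for Nes, -0.07 to 0.65 for Krt18 and -0.60 to 0.22 for Aqp3.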
